A study of Homo sapiens with 6 samples.

Results

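The genes described here encode the voltage-gated sodium, calcium, potassium and cyclic-nucleotide-gated pacemaker channels, together with the potassium channels opened by ions, by leak or by inward rectification. They were chosen by symbol alone, as protein-coding genes of chromosomes 1 to 22 and X whose names begin with SCN (followed by a number and A or B), CACNA1, CACNA2D, CACNB, CACNG, KCN or HCN. The rule found 140 genes among 19970 protein-coding genes, 0.701% of them. By family they were 14 sodium channel genes, 26 calcium channel genes, 96 potassium channel genes and 4 HCN genes.

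The data came from chromatin immunoprecipitation followed by sequencing (ChIP-seq) in neurons that were differentiated, in a BrainPhys-based protocol, from neural progenitors of the human pluripotent cell line KOLF2.1J. All 3 groups shared this 1 line and 1 differentiated state: 2 libraries were precipitated with an antibody to CTCF, 2 with an antibody to the acetylated histone H3K27ac, and 2 were input chromatin with no antibody. The values used were 1 peak list per antibody, made by the authors for both of its replicates together. The difference between replicates could therefore not be measured, no test between conditions was possible, and intervals below are 95% intervals that cover counting error over genes or peaks only. Because the cultures were profiled in bulk, the share of cells that carry a mark and its level per cell cannot be told apart.

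H3K27ac marks active promoters and enhancers. CTCF binds DNA through its zinc fingers and is found where chromatin loops are anchored and where domains of chromatin meet. Voltage-gated sodium channels carry the upstroke of the action potential, calcium channels couple depolarization to transmitter release and to transcription, and potassium channels set the resting potential, the repolarization and the firing pattern. A pore is built from alpha subunits, while beta, alpha2-delta, gamma, KChIP and KCNE subunits bind to the pore and change its gating or its delivery to the membrane.

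On chromosomes 1 to 22 and X the H3K27ac list held 78639 peaks, each with a fold enrichment at its summit (median 4.74, highest 98.9). The CTCF list held 43644 peaks with a signal value whose scale the sources used here do not give (median 91.0, highest 492), so levels were never compared between the lists. Sequencing depth was not given in the sources used here. H3K27ac peaks were present in 70.8% of all protein-coding genes. Beside that, 15 of 15 neuron marker genes had one (82.3% of genes of similar length) and 11 of 11 progenitor markers (61.3%). The counts were 7 of 8 for astrocyte markers (72.9%), 5 of 8 for oligodendrocyte markers (66.3%), 2 of 6 for microglia markers (70.3%), 2 of 7 for pluripotency markers (58.4%) and 4 of 8 for heart and skeletal muscle markers (60.4%). With so few genes a list, only the neuron and progenitor lists were marked in full, and the part of other cell types in the values below was not tested.

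Sequences at the starts of some channel genes are shown first, because they let a reader compare CTCF peaks with the bases under them. They come from the RefSeq promoter table of GRCh38.p14, which lists at least 1 start for 101 of the 140 genes (72.1%), 153 starts in all. As this is less than 80% of the genes, the values over all listed starts are given below for reference only, and no difference between channel genes and other genes is read from them. A CTCF core motif was searched on both strands of the window from 250 bases before to 50 after each start: a pair of C, 3 bases of any kind, AGG, 1 base of any kind, and GGC. It was present in 5.51% of all 22131 windows, in 11.9% of the 4556 windows that overlapped a CTCF peak and in 3.86% of those that did not. A CTCF peak overlapped the window of 30 starts from 28 channel genes, and 5 of these windows held the motif. KCND3, which encodes the Kv4.3 pore, held it with no CTCF peak on the window. The 5 stretches follow, on the strand of the gene and with the motif in capitals.
KCNT1: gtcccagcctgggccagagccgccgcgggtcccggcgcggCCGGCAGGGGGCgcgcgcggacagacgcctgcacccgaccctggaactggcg
KCNH2: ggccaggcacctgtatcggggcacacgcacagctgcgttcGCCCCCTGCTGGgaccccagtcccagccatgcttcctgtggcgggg
KCNH1: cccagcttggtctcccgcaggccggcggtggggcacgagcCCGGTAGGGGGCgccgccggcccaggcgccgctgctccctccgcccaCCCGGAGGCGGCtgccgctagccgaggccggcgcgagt
CACNA1C: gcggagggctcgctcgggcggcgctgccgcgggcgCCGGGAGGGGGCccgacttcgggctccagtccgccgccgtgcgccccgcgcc
KCNG2: cgctccgCCCCGAGGAGGCcgccggccggg
The KCNT1 stretch (chr9:135702051-135702142, plus strand) belongs to the sodium-activated potassium channel Slack. Its motif lay 94 bases before the start and 5 bases from the summit of a CTCF peak of signal 210, the only CTCF peak of the gene. The KCNH2 stretch (chr7:150975042-150975127, minus strand) precedes 1 of 5 listed starts of the gene for hERG, the potassium channel of cardiac repolarization. Its motif read on the opposite strand, 46 bases before the start and 3 bases from the summit of a peak of signal 88.2. The KCNH1 stretch (chr1:211134149-211134273, minus strand) belongs to the Kv10.1 channel and held 2 matches, 85 and 38 bases before the start and 90 and 137 bases from the summit of a peak of signal 301. In the CACNA1C stretch (chr12:2052737-2052823, plus strand) the match lay 215 bases before the start, 233 bases from the summit and outside the peak itself, whose signal was 85.7. KCNG2, a silent modifier of Kv2 channels, had its match 17 bases after the start (chr18:79797948-79797977, plus strand), 96 bases from the summit of a peak of signal 136. In KCNT1 and KCNH2 the motif thus sat within 5 bases of the summit, and in the other 3 genes it did not. A match is a description of these letters and not a measured binding site.

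Counted over whole genes, extended by 1 kb either side, 99 of 140 channel genes (70.7%, 62.7 to 77.6) overlapped at least 1 H3K27ac peak, beside 70.8% of all protein-coding genes. Channel genes are long, with a median of 55.9 kb beside 24.2 kb, and long genes meet more peaks. Among other genes within 20% of the length of each channel gene, 79.0% had a peak, so the channel genes lay lower by a difference of -8.30 percentage points (-16.3 to -1.40). This gap went with peaks shared between neighbouring genes: with peaks that touched no other protein-coding gene, the difference was 0.47 (-7.65 to 7.64). It also depended on the extension, and with 5 kb added either side it was -4.06 (-11.7 to 2.12), an interval that includes 0. CTCF peaks overlapped 103 of the 140 genes (73.6%, 65.7 to 80.2), beside 60.4% of all genes and 71.1% of genes of similar length. Both marks were present in 79 genes (56.4%, 48.2 to 64.4), beside 51.8% of all genes and 63.2% at similar length. Neither was present in 17 genes (12.1%, 7.72 to 18.6), beside 20.5% of all genes and 13.1% at similar length.

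**Figure D1:**
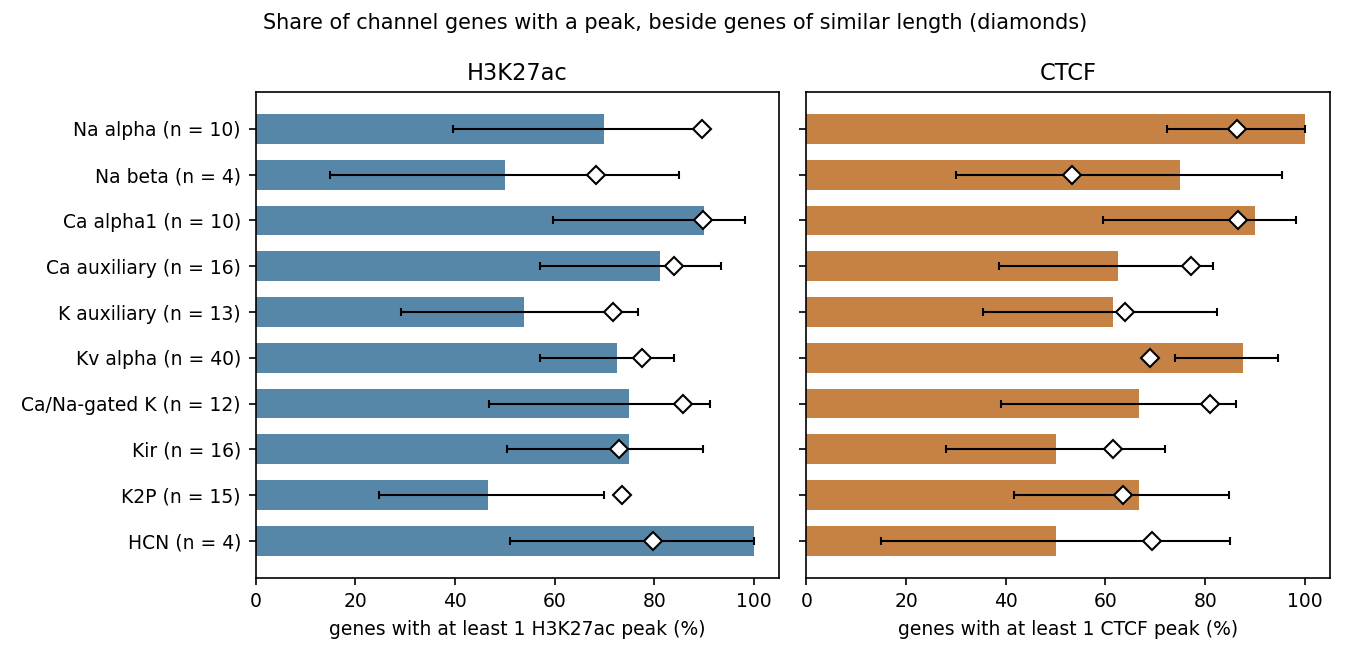
Share of channel genes with at least 1 peak (percent, bars) in 10 classes for H3K27ac (left) and CTCF (right), with 95% Wilson intervals as lines and the share among genes of similar length as diamonds. The K2P bar for H3K27ac (46.7%) ends below its diamond (73.5%), and the Kv alpha bar for CTCF (87.5%) ends above its diamond (68.9%); n is the number of genes.

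Where H3K27ac occurred, the highest peak of a channel gene was mostly low. The highest fold enrichment of a gene had a median of 9.22 over the 99 genes (7.32 to 10.9, range 2.52 to 43.6), beside 15.7 over the 14145 protein-coding genes with a peak. Ranked among genes of similar length that had a peak, the channel genes had a median percentile of 24.5 (20.1 to 30.0), with 77 of 99 genes under the 50th percentile, 28 under the 10th and 1, KCNAB2, above the 90th. With peaks that touched no other gene the median percentile was 30.8 (24.6 to 37.4), and 70 of 95 genes lay under the 50th. CTCF signal did not show this order: the median highest signal was 184 (154 to 213) beside 153 over all genes with a peak, at a median percentile of 57.4 (47.8 to 64.6), and 15 genes lay above the 90th percentile.

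**Figure D2:**
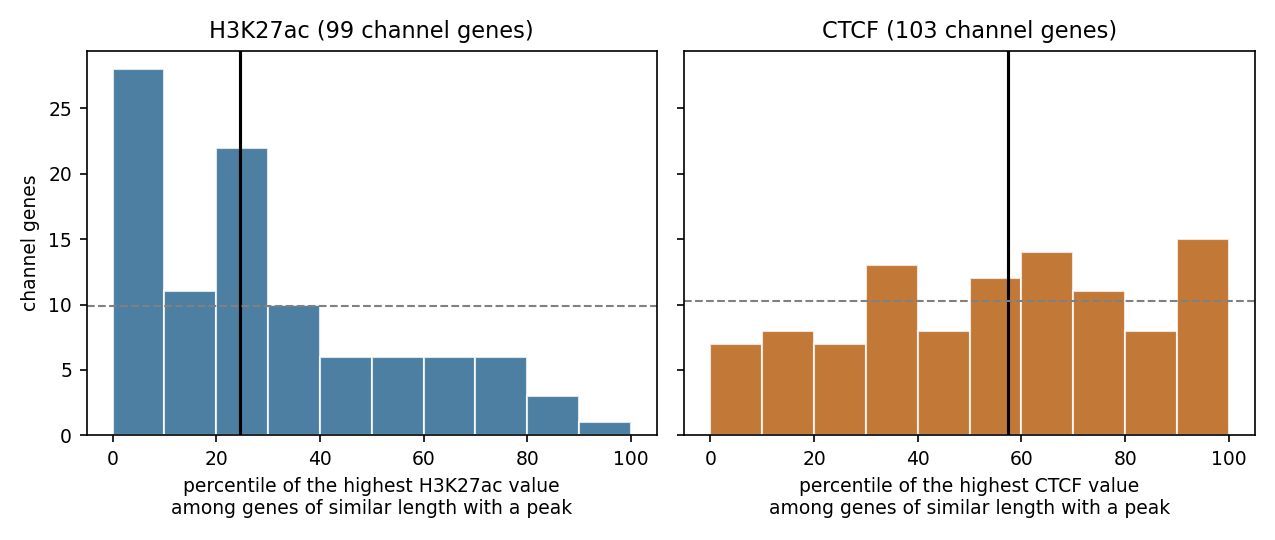
Number of channel genes (y axis) by the percentile of their highest value among genes of similar length with a peak (x axis), for H3K27ac (left, 99 genes) and CTCF (right, 103 genes). The solid line is the median (24.5 and 57.4) and the dashed line the height of an even spread; 28 channel genes fall in the lowest bin for H3K27ac.

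The place of the H3K27ac peaks also differed from that in other genes. A peak lay within 1 kb of either end of the gene in 68 of 140 channel genes (48.6%, 40.4 to 56.8), beside 62.5% of all genes and 67.3% of genes of similar length (difference -18.8, -26.9 to -10.6). Part of this gap went with shared peaks: with peaks that touched no other gene it was -5.89 (-13.9 to 2.39), an interval that includes 0. For CTCF, 58 genes (41.4%, 33.6 to 49.7) had a peak at an end, beside 37.5% of all genes and 40.8% at similar length. The highest H3K27ac peak of a channel gene lay at a gene end in 44 of 99 genes (44.4%), beside 67.6% at similar length, and away from both ends in 55, including CACNA1A, KCND3 and KCNIP1. Highest peaks at an end had a median fold enrichment of 11.2, and those away from the ends had 8.0. Of those 55 genes, 4 had their highest peak within 1 kb of a listed start inside the gene (KCNA2, KCNK2, KCNN2 and SCN1A), 37 had it away from every listed start, and 14 had no listed start. The gene table gives no exons, so whether a peak inside a gene is exonic or intronic was not analysed here.

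Highest peaks shared with a neighbour had a larger median than the others, though some of them were low. In 8 of the 99 genes (8.08%) the highest H3K27ac peak also touched another protein-coding gene, beside 30.2% of other genes, and these 8 had a median of 23.9 beside 8.79 for the remaining 91. They included KCNAB2 with NPHP4, KCNJ14 with CYTH2, SCN11A with WDR48, KCNH6 with DCAF7, CACNA1C with DCP1B and KCNG3 with MTA3. To which of the 2 genes such a peak belongs cannot be told from a peak list.

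Gene length separated the channel genes with and without H3K27ac. Genes with a peak had a median length of 77.4 kb, and genes without had 12.8 kb. Of the 21 channel genes of at most 10 kb, 8 (38.1%, 20.8 to 59.1) had an H3K27ac peak, beside 48.0% of other genes of that length, whereas all 31 channel genes over 200 kb had one, beside 96.0%. From 50 to 200 kb, 29 of 40 channel genes (72.5%, 57.2 to 83.9) had one, beside 86.5%. For CTCF the short channel genes stood higher: 13 of the 21 (61.9%, 40.9 to 79.2) had a CTCF peak, beside 36.0% of other genes of at most 10 kb. Examples are KCNJ11, of 4.10 kb with 3 CTCF peaks and a highest signal of 294, and KCNK7, of 2.96 kb with 2 CTCF peaks and 216. The 294 peak lies outside KCNJ11 and only its edge meets the extended interval, with its summit at -1.14 kb from the lower end. The next peak of KCNJ11, of 196, overlaps the gene itself. KCNJ11 encodes Kir6.2, the pore of the ATP-sensitive potassium channel. KCNK7 encodes a two-pore subunit with no known current of its own.

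**Figure D3:**
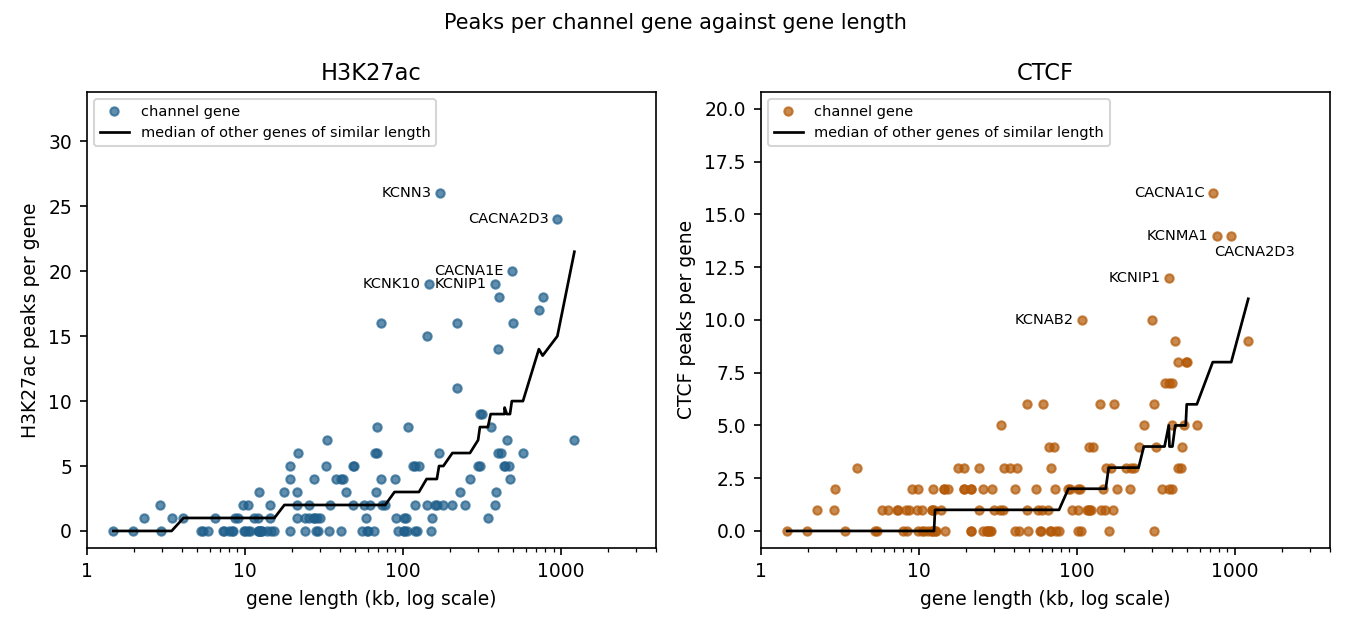
Peaks per channel gene (y axis) against gene length in kb (x axis, log scale) for H3K27ac (left) and CTCF (right), 1 point per gene; the line is the median among other genes of similar length. KCNN3 has 26 H3K27ac peaks (8 with q above 0.05) and CACNA1C has 16 CTCF peaks, both above the line.

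Voltage-gated sodium channels were marked unevenly. Of the 10 alpha subunit genes, 7 had an H3K27ac peak (70.0%, 39.7 to 89.2), beside 89.6% at similar length, with a median highest fold enrichment of 7.32, and all 10 had a CTCF peak, beside 86.4%. SCN8A, the gene of Nav1.6 at the axon initial segment, had the highest value and 11 peaks. Its peak at chr12:51591212-51592011 reached 34.3 and covered the listed start, and a second region 92 kb into the gene reached 16.8. SCN11A, the gene of Nav1.9 of sensory neurons, followed with 29.7 at chr3:39051250-39052843, a peak it shares with WDR48. SCN1A, the gene of Nav1.1 of inhibitory interneurons, had 13.9, SCN3A 7.32 over 5 peaks, SCN2A 5.54 in a single peak, SCN9A 5.15 and SCN7A 3.25. Genes with no listed H3K27ac peak included SCN4A, which encodes the channel of skeletal muscle, and SCN10A, which encodes a channel of sensory neurons. The 2 genes with the highest CTCF signal among the alpha subunits were SCN11A (262) and SCN2A (244).

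The starts of SCN8A and SCN2A are shown because these 2 genes, at 34.3 and 5.54, lay far apart in H3K27ac. The 150 bases upstream of each start are printed with every CG dinucleotide in capitals, since CG-rich promoters are common among widely used genes.
SCN8A: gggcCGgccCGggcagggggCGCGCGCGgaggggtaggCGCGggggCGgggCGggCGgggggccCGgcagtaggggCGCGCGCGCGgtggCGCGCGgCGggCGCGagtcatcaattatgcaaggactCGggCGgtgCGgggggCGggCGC
SCN2A: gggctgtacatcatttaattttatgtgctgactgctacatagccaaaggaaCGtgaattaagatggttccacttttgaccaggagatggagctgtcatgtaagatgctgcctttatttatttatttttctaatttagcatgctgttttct
The SCN8A stretch (chr12:51591083-51591232, plus strand) held 28 CG and overlapped the flank of the 34.3-fold peak. The SCN2A stretch (chr2:165239264-165239413, plus strand) held 1 CG, and no H3K27ac peak lay within 1 kb of that start. Both starts had a CTCF peak within 1 kb, of 184 at SCN8A and 196 at SCN2A. CG was also counted in the 250 bases before each listed start of the alpha subunits. SCN8A had 45, SCN11A 21 at a start within 1 kb of its 29.7-fold peak, and SCN9A 22 near its 5.15-fold peak. By contrast, SCN1A had 1 CG at a start within 1 kb of its 13.9-fold peak. Starts with no H3K27ac peak within 1 kb had 0 to 10 CG, in SCN1A, SCN2A, SCN7A, SCN10A and SCN11A. Whether CG and H3K27ac go together was not tested. In the 250 bases, the median over all 22131 listed starts was 16 CG and over the 153 listed starts of channel genes 14. In the 150 bases printed, these medians were 11 and 9.

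Among the 4 sodium channel beta subunits, adhesion-like proteins that bind the alpha subunit, SCN3B (11.4, 2 peaks) and SCN4B (8.63, 4 peaks) had H3K27ac. SCN2B had only a CTCF peak, of signal 309, the highest of the class before that of SCN4B (240). With 4 genes, the share of 50% has an interval from 15.0 to 85.0 and cannot be set apart from the 68.3% at similar length.

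Of the 10 calcium channel alpha1 genes, 9 had H3K27ac (90%, 59.6 to 98.2), beside 89.7% at similar length, and the same 9 had CTCF. CACNA1A, which encodes the P/Q-type pore of presynaptic terminals, was highest with 24.2 at chr19:13408210-13409864, inside the gene and 202 kb from its lower end. Its other 4 H3K27ac peaks lay between 4.14 and 6.14, so 1 peak carried the gene's value. CACNA1C, the L-type channel Cav1.2, reached 22.4 in the peak it shares with DCP1B, and 18.9 at chr12:2490324-2492609, which touches no other gene. CACNA1E, the R-type channel, had 20 peaks, the most of the class, with a highest value of 12.1. CACNA1B, the N-type channel of synaptic terminals, had 2 peaks, the higher at 4.23, at the 4.44th percentile of genes of its length. CACNA1F, the L-type channel of photoreceptors, had no peak in either list, whereas CACNA1S, that of skeletal muscle, had 4 H3K27ac peaks up to 8.36. CTCF peak number varied within the class: CACNA1C had 16 and CACNA1A had 10, where genes of similar length have a median of 8 and 4, while CACNA1D had 4 and CACNA1I had 1, at the 49.2nd and 26.1st percentiles for their lengths. The highest CTCF signals were those of CACNA1I (266) and CACNA1C (254).

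The calcium channel auxiliary genes comprise the alpha2-delta subunits that bring the channel to the surface, the cytoplasmic beta subunits and the gamma subunits, several of which act on AMPA receptors. H3K27ac was present in 13 of 16 (81.2%, 57.0 to 93.4), beside 83.9% at similar length, with the highest class median, 11.3. All 4 alpha2-delta genes and all 4 beta genes had it: CACNA2D3 reached 21.2 over 24 peaks, CACNB3 19.2 over 2, CACNA2D1 17.5 over 16 and CACNB1 14.3 in 1. The gamma genes varied most, from CACNG4 at 21.7 over 6 peaks to CACNG1, the skeletal muscle subunit, CACNG3 and CACNG5, which had no peak in either list. CACNG2, the gene of stargazin, had 2 H3K27ac peaks up to 9.5. CTCF was present in 10 of 16 (62.5%, 38.6 to 81.5), beside 77.1%, and was highest in CACNB4 (374) and CACNA2D3 (333).

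Voltage-gated potassium alpha subunits formed the largest class. H3K27ac was present in 29 of 40 (72.5%, 57.2 to 83.9), beside 77.6% at similar length, with a median of 9.96. CTCF was present in 35 of 40 (87.5%, 73.9 to 94.5), beside 68.9% at similar length, the only class and mark in which the interval lay above the value at similar length. The 3 highest H3K27ac values included those of KCNH6 (25.4, in the peak it shares with DCAF7) and KCNH8 (24.5). KCNH6 and KCNH8 encode relatives of hERG in the ether-a-go-go family. KCNQ3 and KCNQ5 encode subunits of the M-current, which limits repetitive firing. KCNQ3 had 8 H3K27ac peaks up to 12.1, and KCNQ5 had 6 up to 3.91. KCNQ1 had 18 peaks, the most of the class, with a highest value of 14.4. KCND3, which encodes the A-type channel Kv4.3, had 16 peaks, of which 3 adjoining ones between 134 and 139 kb from the lower end reached 16.0, 22.5 and 19.3. KCND2, the gene of Kv4.2, had 4 peaks up to 7.77 over 477 kb.

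The Kv1 and Kv3 genes gave lower values. KCNA3 (19.7) and KCNA2 (10.5) had H3K27ac, and KCNA6 (5.75) and KCNA5 (3.66) had it at lower levels, while KCNA1, KCNA4, KCNA7 and KCNA10 had none. KCNA1 and KCNA2 encode the Kv1.1 and Kv1.2 channels of axons. Of the Kv3 genes of fast-spiking neurons, KCNC4 reached 11.5, KCNC2 6.0 and KCNC1 5.79. Among the silent subunits, which only work together with Kv2, 6 of 10 had H3K27ac, beside 70.8% of all protein-coding genes. A share at similar length was not computed for these 10 genes. KCNG1 had 5 peaks up to 6.57, and KCNF1 (4.65), KCNG3 (4.49), KCNV1 (3.37), KCNG4 (3.32) and KCNG2 (2.52) had 1 each. KCNS1, KCNS2, KCNS3 and KCNV2 had none. KCNA7 and KCNA10 were the members of the class with no peak in either list. CTCF was highest in KCNH2 (379, at chr7:150962899-150963407, the highest of all channel genes) and KCNA2 (359).

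**Figure D4:**
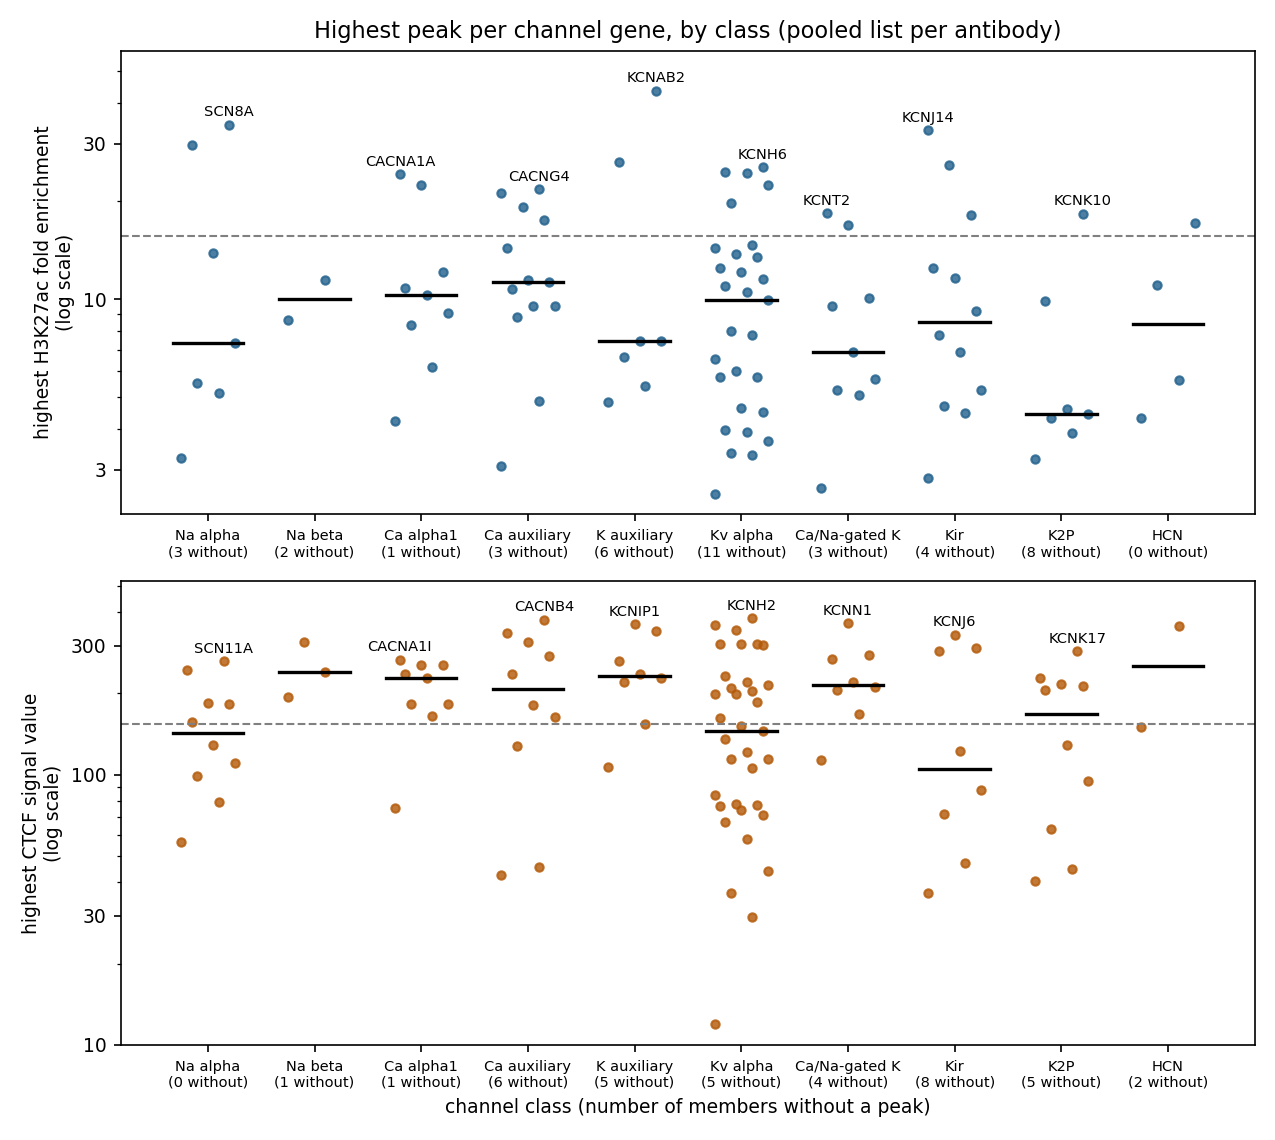
Highest H3K27ac fold enrichment (top, log scale) and highest CTCF signal (bottom, log scale) of each channel gene with a peak, by class, 1 point per gene, from the pooled list of each antibody. Short black lines are class medians, dashed lines the medians over all protein-coding genes with a peak (15.7 and 153), and the axis labels count the genes without a peak; 22 channel genes lie above the H3K27ac line.

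Of the 13 auxiliary potassium channel genes, 7 had H3K27ac (53.8%, 29.1 to 76.8), beside 71.7% at similar length. KCNAB2, a cytoplasmic beta subunit of Kv1 channels, had the highest value of all channel genes, 43.6 at chr1:5991321-5992487, in a peak it shares with NPHP4. KCNIP1, which encodes a calcium-binding partner of Kv4, had 19 peaks. Its highest (26.4, chr5:170632438-170633667) touched no other gene and contained the gene's highest CTCF peak (361, chr5:170632942-170633445). KCNIP2 and KCNIP3 each reached 7.46, KCNIP4 had 7 peaks up to 6.67 over 1220 kb, and KCNAB1 had 6 up to 4.83. Of the KCNE genes, whose short products modify cardiac and epithelial channels, only KCNE4 had H3K27ac, at 5.41, and KCNE3, KCNE5, KCNAB3 and KCNRG had no peak in either list. The highest CTCF signals were those of KCNIP1 and KCNIP2 (339).

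The calcium- and sodium-activated potassium channels had H3K27ac in 9 of 12 genes (75%, 46.8 to 91.1), beside 85.8% at similar length, with a median of 6.90. KCNT2 (18.4), KCNN1 (16.8) and KCNN3 (10.1) were highest. KCNN3, the gene of the small-conductance channel SK3, had 26 listed H3K27ac peaks over 173 kb, the most of any channel gene. This number lay at the 96.9th percentile for its length, yet its highest value lay at the 26.0th. Of the 26 peaks, 8 had q above 0.05. CACNA2D3 had 24 peaks, 0 of them with q above 0.05, so KCNN3 does not rank first at q under 0.05. KCNMA1, the large-conductance BK channel, had 18 peaks up to 6.90 and 14 CTCF peaks. KCNT1 had a CTCF peak and no H3K27ac peak, and KCNMB1, the BK subunit of smooth muscle, had no peak in either list. CTCF was highest in KCNN1 (363) and KCNN2 (277).

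Inward rectifiers had H3K27ac in 12 of 16 genes (75%, 50.5 to 89.8), beside 73.0% at similar length, and CTCF in 8 (50%, 28.0 to 72.0), beside 61.5%. KCNJ14, the gene of Kir2.4, was highest (33, in the peak it shares with CYTH2). KCNJ10, the gene of the glial channel Kir4.1, followed with 25.7 at chr1:160061227-160062329, in 1 of 2 adjoining peaks, the other at 18.6. KCNJ6, a G protein-gated channel of neurons, had 18.1 and 9 peaks, the most of the class, and its partner KCNJ3 had 9.22 over 2 peaks. KCNJ13 and KCNJ18 had no peak in either list. KCNJ18 and KCNJ12 are near-identical copies, so reads from either cannot be placed with certainty and the values of both are uncertain. CTCF was highest in KCNJ6 (329) and KCNJ11 (294, in the peak whose summit lies outside its extended interval).

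Two-pore potassium channels, which carry leak currents, had the lowest H3K27ac of the 10 classes. A peak was present in 7 of 15 genes (46.7%, 24.8 to 69.9), beside 73.5% at similar length, and the median highest value was 4.44. KCNK10, the gene of TREK-2, was the exception, with 18.3 and 19 peaks. KCNK3, the gene of the acid-sensitive channel TASK-1, reached 9.84, KCNK4 4.62, KCNK2 4.44, KCNK12 4.32, KCNK15 3.88 and KCNK1 3.24. KCNK9, KCNK16 and KCNK18 had no peak in either list. CTCF was present in 10 of 15 (66.7%, 41.7 to 84.8), beside 63.6%, and was highest in KCNK17 (286) and KCNK15 (228).

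All 4 HCN genes, which encode the pacemaker channels opened by hyperpolarization, had H3K27ac (interval 51.0 to 100), beside 79.7% at similar length. HCN4, the main form of the sinoatrial node, was highest with 17.2 over 5 peaks, HCN3 had 11.1 and HCN2 had 4.33. The 17.2 peak of HCN4 lies just outside the gene at its lower-coordinate end. The listed start of HCN4 is at the other end, where H3K27ac reached 13.3. For CTCF, HCN3 had a highest signal of 151, and HCN2 and HCN4 had no peak.

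The starts of CACNA1A, KCND3, KCNK10 and HCN4 are shown because these genes led or nearly led their classes in H3K27ac while the bases before their starts varied. Each line gives the 150 bases before a listed start with CG in capitals.
CACNA1A: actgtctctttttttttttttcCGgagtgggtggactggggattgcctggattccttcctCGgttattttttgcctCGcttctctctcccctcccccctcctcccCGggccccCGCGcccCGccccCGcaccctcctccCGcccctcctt
KCND3: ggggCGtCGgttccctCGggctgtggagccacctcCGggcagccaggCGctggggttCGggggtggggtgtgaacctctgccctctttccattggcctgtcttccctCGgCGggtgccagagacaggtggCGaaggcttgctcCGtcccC
KCNK10: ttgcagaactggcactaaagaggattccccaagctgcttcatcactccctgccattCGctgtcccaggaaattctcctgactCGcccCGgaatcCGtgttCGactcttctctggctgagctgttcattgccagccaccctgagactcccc
HCN4: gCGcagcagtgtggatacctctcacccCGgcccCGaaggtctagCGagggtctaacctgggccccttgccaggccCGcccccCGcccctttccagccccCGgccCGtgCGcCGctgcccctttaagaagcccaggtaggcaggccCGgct
They lie at chr19:13506480-13506629, chr1:111989175-111989324, chr14:88326913-88327062 and chr15:73368959-73369108, all on the minus strand, and hold 9, 10, 5 and 11 CG. H3K27ac within 1 kb of these starts reached 4.32, 9.43, 8.86 and 13.3, in each case less than the gene's highest value. In CACNA1A, KCND3 and KCNK10 the highest peak lay elsewhere inside the gene, and in HCN4 just outside the end opposite the start. The TATA motif TATAAA was present in 11 of the 153 channel gene windows and in 9.46% of all windows. The core of the REST site (CAGCACC, 2 bases of any kind, GGACAG) was found in none of the 153 channel gene windows and in 16 of all 22131 (0.0723%). REST represses many neuronal genes, and the absence of these letters from the windows says nothing about its binding elsewhere.

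**Figure D5:**
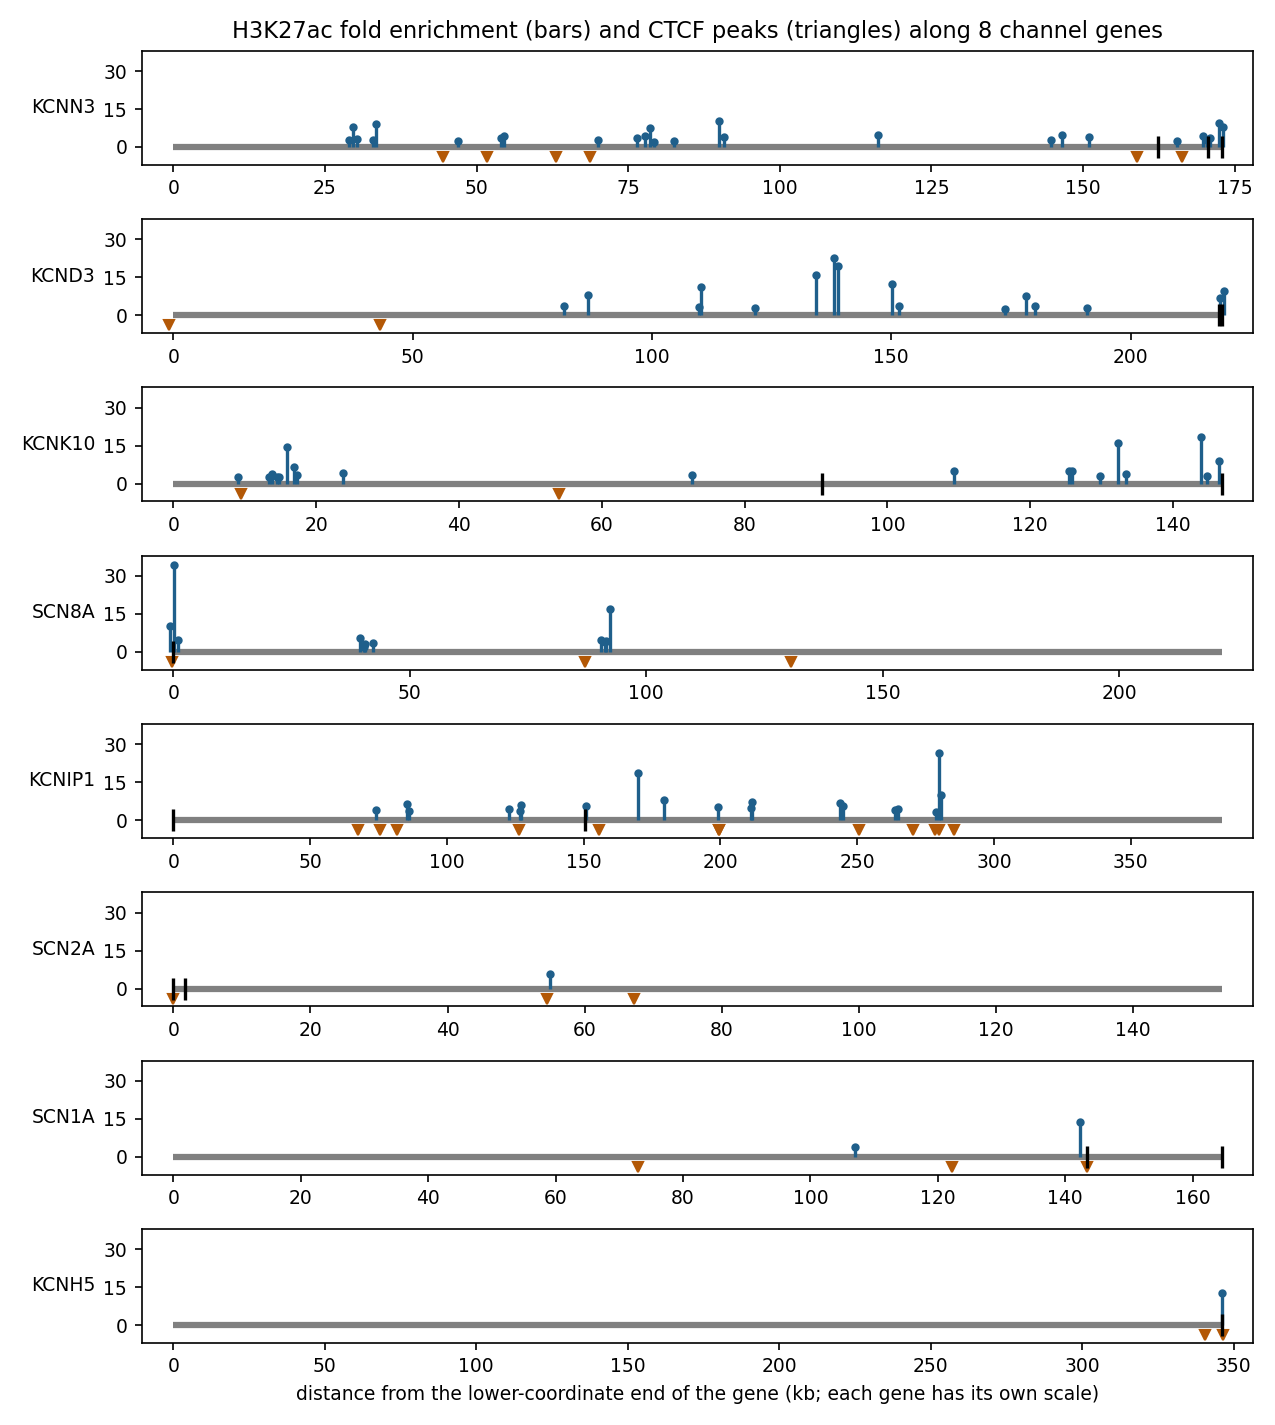
H3K27ac peaks (blue bars, fold enrichment on the y axis) and CTCF peaks (orange triangles, position only) along 8 channel genes, as distance in kb from the lower-coordinate end; black ticks are listed starts and each gene has its own x scale. KCNN3 carries 26 H3K27ac peaks of at most 10.1, 8 of them with q above 0.05. KCND3 and KCNK10 have their highest peaks away from the listed starts, SCN8A has its highest at the start, and KCNH5 has 1 H3K27ac peak in 346 kb.

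A list of 35 neuronal alpha subunits had H3K27ac in 32 genes (91.4%, 77.6 to 97.0), beside 89.5% of genes of similar length. The 3 without were KCNA1, KCNT1 and KCNK9. Their highest values had a median of 9.67, and 26 of the 32 lay under the median of genes of similar length. A second list held 29 subunits best known outside the brain, including SCN10A and SCN11A of sensory neurons. It had H3K27ac in 10 genes (34.5%, 19.9 to 52.7), beside 70.9% at similar length, with a median of 6.12. The members of that list with H3K27ac included SCN11A (29.7), KCNQ1 (14.4), the cardiac and epithelial Kv7.1, and KCNJ8 (11.6), the Kir6.1 pore of vessels. For CTCF the lists stood at 30 of 35 (85.7%), beside 86.0% at similar length, and 19 of 29 (65.5%), beside 60.2%. The neuronal list holds longer genes, with a median of 165 kb beside 21.5 kb, and the values at similar length take this into account. Both lists were written with earlier results of these data known.

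A further list, called the partner list, held 32 genes that the symbol rule does not take in. It joins partners of these channels with separate ion channels and their subunits, such as NALCN, TPCN1, HVCN1 and the CATSPER genes. Partners alone were not counted apart. Of the 32 genes, 23 had H3K27ac (71.9%, 54.6 to 84.4), beside 70.8% of all genes and 83.3% of genes of similar length. Their median length was 138 kb. The median highest value was 10.9, at a median percentile of 35.2 among genes of similar length with a peak, and CTCF was present in 23, beside 77.2% at similar length. UNC79 (35.7) and UNC80 (29.3), which encode subunits of the sodium leak channel, and FGF11 (30.6), which encodes a sodium channel-binding factor, were highest. ANK3, which encodes the ankyrin that anchors sodium channels at the axon initial segment, had 29 peaks up to 16.1. All 4 CATSPER sperm channel genes, the proton channel gene HVCN1 and 4 others had none. The gene of REST had 4 H3K27ac peaks up to 13.7. All 7 genes of REST and its corepressors had H3K27ac, beside 80.9% of genes of similar length, with a median highest value of 28.8.

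The peaks inside channel genes, taken one by one, numbered 532 for H3K27ac and 350 for CTCF. The H3K27ac peaks had a median fold enrichment of 4.42, beside 4.98 for 54695 peaks in other protein-coding genes only. A CTCF peak overlapped 75 of them (14.1%, 11.4 to 17.3), beside 18.4% in other genes. The CTCF peaks had a median signal of 83.1, beside 84.3, and 79 of them (22.6%, 18.5 to 27.2) overlapped an H3K27ac peak, beside 37.3% (36.7 to 37.9) in other genes. The CTCF peaks of channel genes thus had about the median signal of those elsewhere, while the share that met H3K27ac lay below the value in other genes, with no test of that difference. The other genes were not matched for length here. Channel genes are longer, with a median of 55.9 kb beside 24.2 kb for all protein-coding genes, so part of the difference may go with length. Several peaks can lie in 1 gene, so these intervals treat as separate what shares a gene.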

How the data were processed

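ChIP-seq was carried out with antibodies to CTCF and H3K27ac in 2 libraries each, beside 2 libraries of input, from neurons made from KOLF2.1J progenitors. Groups came from the sample titles. Per the submitters' processing notes, adapters were trimmed with cutadapt 1.16 and the build was hg38. The aligner, the peak caller and its settings are not given in the sources used here.

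The authors deposited 1 peak list per antibody, pooled over both replicates, with 0 columns of per-sample values. The deposited CTCF signal has no stated scale, and per the labels its list name refers to the irreproducible discovery rate. The deposited H3K27ac value was read as a ratio, the fold enrichment at the summit. The authors' lists also give −log10 q values, a score that was not used, and positions, printed here counted from 1. The CTCF −log10 q was at its maximum of 4.78 for 68.3% of peaks and could not rank them.

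Gene intervals came from the RefSeq gene table of GRCh38.p14, starts and bases from its promoter table, matched by gene identifier. An H3K27ac peak covered 21.0% of the 39940 gene ends at the listed positions and 2.74% or 2.72% of them after a shift of 100 kb either way, so the table's positions fit the lists. A gene had a peak if at least 1 base was shared with its interval extended by 1 kb. Genes of similar length were other protein-coding genes within 20% of a member's length, and the value given is the mean over members. Shares have Wilson intervals and medians have order-statistic intervals at 95%. Python 3.11.15, pandas 2.3.3, numpy 2.4.6 and scipy 1.17.1 were used, and the overlap and length matching were tested on simulated data. No test was run because single replicates have no values here.

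In each class the text names the 3 genes with the highest H3K27ac, the gene with the most H3K27ac peaks, the 2 with the highest CTCF signal and those with no peak. Genes of the neuronal and the outside-brain lists may also be named, and further genes were named after their values were seen. Some genes that this rule takes in are not reported here by name, though they are included in all counts. The members and the lists were chosen with earlier results of these data known. Gene ends, peaks inside genes, similar-length values of the marker and partner lists, listed starts and percentiles of level were added after seeing the data. Alternatives changed the extension, the overlap, the strictness of the lists, shared peaks, the length matching, CTCF peaks of the recurrent width of 800 bases, and merged CTCF peaks.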

Additional observations from a re-analysis of the deposited data

How the results depend on the processing

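Of 86 recomputed values, 74 stayed within the interval of the value they replaced, 11 moved outside it, and the H3K27ac difference, whose own interval excluded 0, changed sign under 1 setting. The CTCF difference at gene ends, whose intervals all include 0, went from 0.66 to -0.30 with the strongest 50% of each list. With peaks touching no other gene, the H3K27ac difference from genes of similar length went from -8.30 to 0.47, its difference at gene ends from -18.8 to -5.89, and the median percentile of the highest H3K27ac value from 24.5 to 30.8. That setting removes peaks shared with neighbours, which hold the highest peak of 30.2% of other genes and of 8.08% of channel genes. With the strongest 50% of each list, shares fell by construction to 55.7% for H3K27ac, 56.4% for CTCF and 40% for both, the H3K27ac difference was -17.6, its median percentile of peak number 28.8, and the medians of the highest values 10.9 and 216. The CTCF share was 82.1% with 5 kb added either side and 65.0% without the recurrent width. With 5 kb either side the H3K27ac difference was -4.06, and its interval included 0. Over its 8 alternatives the H3K27ac difference ran from -17.6 to 0.47, and the CTCF difference, whose interval includes 0, ran from 2.31 to 6.13 over 10. The alternatives for levels and gene ends were chosen after seeing the data. No paired analysis was possible because each antibody has 1 list pooled over both replicates, and leaving out a replicate was not run for the same reason. Depth is unknown, so a gene without a peak may carry the mark below what these lists detect.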

Other observations

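Several channel genes lie side by side, and these neighbourhoods differed in H3K27ac. In the sodium channel cluster of chromosome 2, which runs over 1407 kb through SCN3A, SCN2A, SCN1A, SCN9A and SCN7A, 43 H3K27ac peaks were listed, of which 11 lay in the 5 genes, and 11 of its 19 CTCF peaks did. Per 100 kb this is 3.05 H3K27ac peaks. The Kv1 genes KCNA10, KCNA2 and KCNA3 on chromosome 1 spanned 158 kb with 17 H3K27ac peaks, up to 19.7, of which 7 lay in the 3 genes. KCNA6, KCNA1 and KCNA5 on chromosome 12 spanned 237 kb with 6, up to 5.75, and all 6 lay in the genes, so the genes of both clusters held about as many. On chromosome 17, the 222 kb of CACNG5, CACNG4 and CACNG1 held 11 H3K27ac peaks, 6 of them in these genes and all 6 in CACNG4, and 5 CTCF peaks that all lay between the genes or outside their extended intervals.

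Some long channel genes carried few H3K27ac peaks for their size. KCNH5, which encodes an ether-a-go-go channel of the brain, had 1 peak of 12.5 in 346 kb, where genes of its length have a median of 8. KCNT2 had 2 peaks over 383 kb, of which the higher reached 18.4 at a gene end, and KCNH8 had 3 over 387 kb, the highest of 24.5 also at a gene end. Channel genes over 100 kb without an H3K27ac peak included CACNG3, KCNK13, KCNK9, KCNU1 and SCN10A, and KCNU1 had a CTCF peak of 206. KCNMB2, of 308 kb, had 5 H3K27ac peaks and no CTCF peak, at the 0.98th percentile of CTCF peak number for its length.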
